A study of Caenorhabditis elegans with 3 samples.

Results

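The genes described here encode the small-RNA silencing machinery of Caenorhabditis elegans other than the PRG proteins: Argonautes, RNA-dependent RNA polymerases, Dicer and its partners, mutator factors and nuclear RNAi factors. They were taken from a list of 46 gene symbols by an exact match to the gene name in the deposited table. The match found 45 genes of the 46739 in the table, and the symbol cde-1 had no match and was skipped. All 45 are protein coding in the deposited table. RNA came from dissected germlines of the wild-type strain N2, with no treatment named, and 3 libraries form the only group. The sequencing kit copies whole transcripts from very small inputs. The series asks which transcription factors the germline expresses, so it holds no contrast between conditions for these genes. Nothing in the labels ties each library to its own animals or culture, and the spread over the 3 libraries may be technical.

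Argonautes are proteins that hold a small RNA and are guided by it to matching transcripts. In the worm, Dicer cuts double-stranded RNA into primary small interfering RNAs (siRNAs), and RNA-dependent RNA polymerases then copy the target transcript into abundant secondary siRNAs, which load onto the worm-specific WAGO Argonautes. Mutator proteins gather at foci beside germ granules, where this amplification takes place, and nuclear Argonautes carry silencing to chromatin and to later generations. The germline is the tissue in which transposon silencing and inherited RNAi have been studied most.

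Library totals lay between 14523486 and 16656171 counts, and libraries differed by more than sampling noise in each pairing, with a chi-square per gene of 72.9 to 120. Marker genes of oocytes (12 of 12) and of mitotic and pachytene germ cells (12 of 12) reached 1 CPM, the count scaled to its library's total, in every library. Sperm markers differed far more than germ cell markers did. Their 20 genes summed to 9759, 1106 and 3166 CPM in replicates 1, 2 and 3, and each was highest in replicate 1 and lowest in replicate 2. The 12 oocyte genes summed to 24919, 31316 and 28803 CPM, and the 12 germ cell genes to 3752, 3419 and 4663 CPM. The 8 hypodermis genes, all cuticle collagens, summed to 928, 57.1 and 180 CPM. The sum rests on col-140, col-124 and col-19, which were highest in replicate 1 and lowest in replicate 2. The genes dpy-13, sqt-3 and rol-6 were highest in replicate 3, at 9.07, 4.74 and 0.36 CPM, and dpy-7 and bli-1 had 2 counts each in replicate 1 and none elsewhere. The 8 body wall muscle genes summed to 1668, 1176 and 1181 CPM, all of them highest in replicate 1. Most of that sum was act-4, at 1232, 912 and 924 CPM. The 8 intestine genes summed to 386, 1753 and 665 CPM. The intestine sum rests on vit-2, vit-5, vit-6 and cpr-6, which were highest in replicate 2. The genes asp-1 (46.6, 23.1 and 8.89 CPM), elt-7 and ges-1 were highest in replicate 1, and elt-2 had 2, 0 and 3 counts.

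Nearly the whole machinery was present in the germline libraries. A level of at least 1 CPM in each library was reached by 42 of 45 genes, against 40.2% of all protein-coding genes. At least 10 CPM in each library was found for 36 genes, against 26.6% of protein-coding genes, and at least 100 CPM for 18, against 7.03%. The 3 genes under 1 CPM in some library were the WAGO Argonautes wago-5, wago-10 and sago-2, so that 16 of 19 Argonautes and 26 of 26 other factors met the rule. Together the 45 genes took 0.472%, 0.466% and 0.546% of the counts of replicates 1, 2 and 3.

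**Figure D1:**
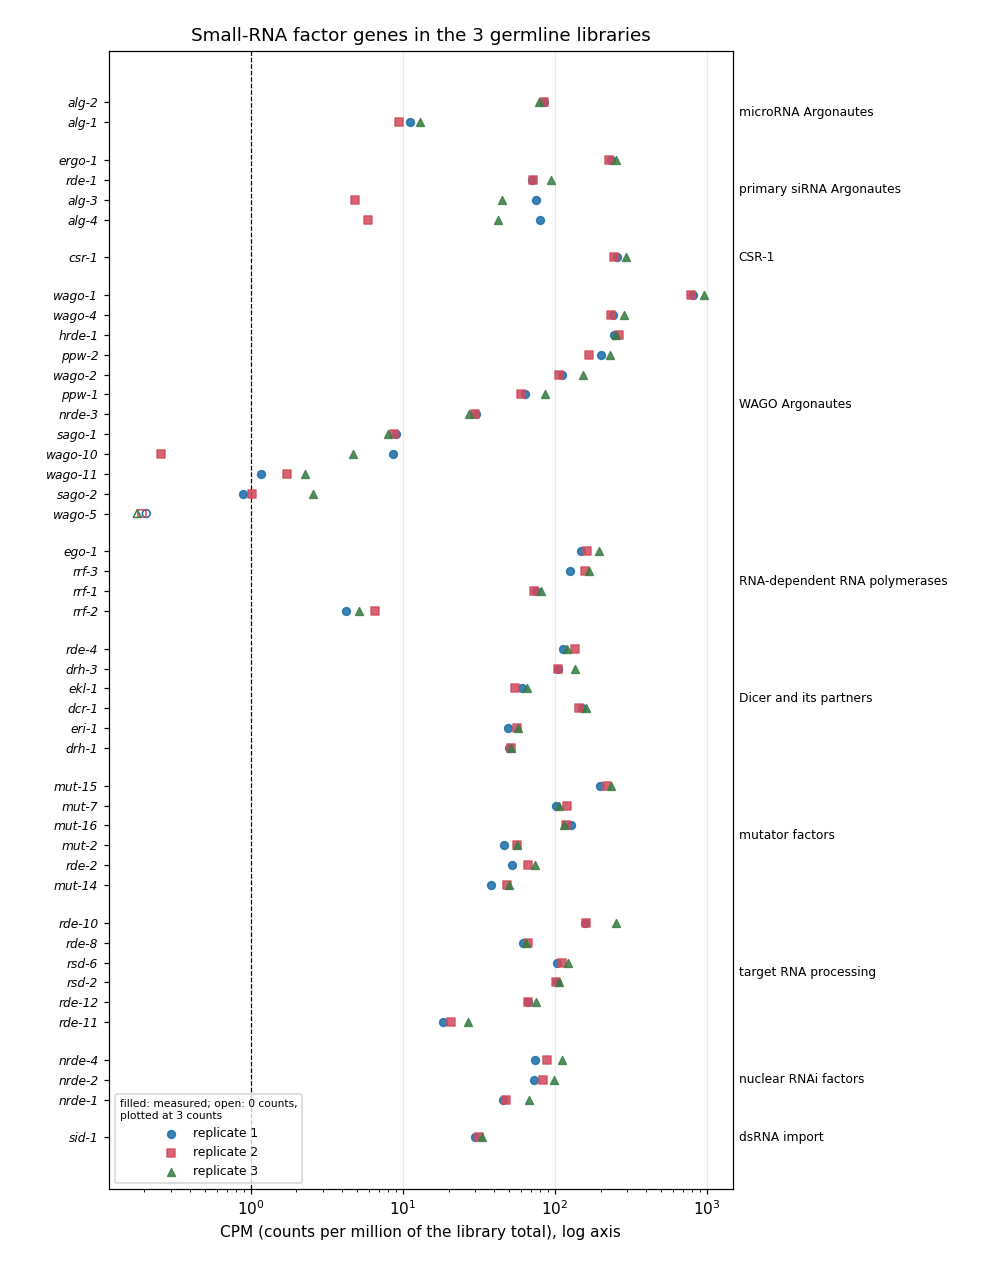
Level of each small-RNA factor gene in the 3 libraries, in CPM on a log axis, with genes grouped by role and 1 point per library. The dashed line marks 1 CPM. Most genes lie between 10 and 285 CPM with their libraries close together, while alg-3, alg-4 and wago-10 have replicate 2 far to the left, and wago-5, with 0 counts, is drawn as open symbols at the level of 3 counts.

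Because long genes collect more reads, levels of different genes were compared as CPM per kb of exon. On that scale the 45 genes had a median of 25.8 CPM per kb (23.2, 25.4 and 28.5 in replicates 1, 2 and 3), against 0.548 CPM per kb over 20116 protein-coding genes with an exon length. Among the 8168 of these that reached 1 CPM in each library, the median was 22.2 CPM per kb. At or above the 80th percentile of protein-coding genes stood 26 of the 45.

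Among the Argonautes, wago-1 stood first. WAGO-1 is a germline Argonaute that binds secondary siRNAs and resides in germ granules. Its gene (WBGene00011061, WBcel235 chromosome I, 7235384 to 7238792) had 806, 783 and 959 CPM in replicates 1, 2 and 3. That equals 278 ± 31.3 CPM per kb (SD, n = 3), the 98th percentile of protein-coding genes. It was the highest of the 45 genes in every library and took 49.6%, 50.1% and 50.5% of the summed CPM per kb of the 12 WAGO genes, and 36.4 ± 1.32% of that of all 19 Argonautes.

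Next among the WAGO genes came wago-4, hrde-1 and ppw-2, which all act in the germline. The gene for WAGO-4, which passes silencing to offspring, had 241, 234.9 and 285 CPM. HRDE-1 is the nuclear Argonaute of inherited silencing in germ cells, and its gene (WBGene00007624, chromosome III, 4172337 to 4176159) was among the steadiest, with 246, 264 and 252 CPM. For ppw-2, also known as wago-3, the values were 202, 167 and 229 CPM. Per length these 3 genes had 75.3 ± 8.05, 71.8 ± 2.6 and 61.1 ± 9.62 CPM per kb (SD, n = 3), so that wago-1 exceeded ppw-2 by 2.19 ± 0.12 on the log2 scale in the same libraries, in 3 of 3 libraries.

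The gene wago-2 had 111, 106 and 153 CPM, or 32.4 ± 6.8 CPM per kb. The deposited table lists it as protein coding, whereas the current Ensembl annotation of the same build lists it, and wago-11, as pseudogenes. PPW-1 is needed for the germline response to fed double-stranded RNA, and ppw-1 had 63.3, 60 and 85.8 CPM, or 22.4 ± 4.52 CPM per kb. Levels of wago-2 and ppw-1 were thus in the range of most cofactors described further on, well under wago-1.

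The genes nrde-3 and sago-1 stood lower, at percentiles 71.5 and 63.1 of protein-coding genes per length. NRDE-3 is the nuclear Argonaute of somatic RNAi, and its gene on the X chromosome had 30.4, 30.1 and 27.3 CPM, or 8.49 ± 0.498 CPM per kb. The gene hrde-1 exceeded nrde-3 by 3.08 ± 0.09 on the log2 scale per length, an 8.46-fold difference with the same direction in 3 of 3 libraries. SAGO-1 and SAGO-2 are further secondary siRNA Argonautes. The levels of sago-1 were 9.02, 8.8 and 8.05 CPM.

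At the bottom of the list were sago-2, wago-11 and wago-5. The gene sago-2 had 13, 16 and 43 counts, which is 0.895 CPM (95% exact Poisson interval 0.477 to 1.53), 1.03 CPM (0.588 to 1.67) and 2.58 CPM (1.87 to 3.48), intervals that cover counting error only. Replicate 3 was thus above the other two by more than counting error, and the mean of 1.5 CPM was 0.961 CPM without it. Per length, the log2 of sago-2 over ppw-1 was -5.57 ± 0.547, a 47.5-fold lower level with 1 direction in 3 of 3 libraries. For wago-11 the values were 1.17, 1.73 and 2.28 CPM. No read was counted for wago-5 (WBGene00022877, chromosome II, 5812375 to 5815482) in any library, which allows up to 0.207, 0.193 and 0.18 CPM, the levels of 3 counts. Set against that limit in each library, wago-4 was at least 949-, 991- and 1285-fold higher per length.

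CSR-1 is an Argonaute that cleaves its targets and is tied to expressed germline genes and to chromosome segregation. Its gene (WBGene00017641, chromosome IV, 7957267 to 7962157) had 257, 244 and 295 CPM, or 72.3 ± 7.2 CPM per kb. It was not resolved from hrde-1, and wago-4 lay above it by 0.058 ± 0.022 log2 units, in 3 of 3 libraries. The log2 of csr-1 over wago-1 was -1.94 ± 0.026, the smallest spread among the 10 pairs chosen for comparison. Exons of csr-1 overlap those of frpr-10 on the same strand over 438 bp, and frpr-10 had 0 counts in each library. The part of this overlap in the small difference from wago-4 was not tested.

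Of the primary siRNA Argonautes, ergo-1 and rde-1 differed by less than 1.5-fold between libraries and alg-3 and alg-4 by more than 2-fold. ERGO-1 acts with siRNAs made in oocytes and embryos, and ergo-1 had 234, 227 and 253 CPM, or 65.1 ± 3.64 CPM per kb. RDE-1 takes up siRNAs from outside double-stranded RNA, and rde-1 had 70.9, 71.8 and 94 CPM, or 24.5 ± 4.08 CPM per kb. Libraries differed by a factor of 1.11 for ergo-1 and 1.33 for rde-1.

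ALG-3 and ALG-4 are paralogous Argonautes that act in spermatogenesis. The gene alg-3 (WBGene00011910, chromosome IV, 11704246 to 11708264) had 75.5, 4.88 and 44.6 CPM in replicates 1, 2 and 3. The gene alg-4 (WBGene00006449, chromosome III, 9887209 to 9891424) had 80.4, 5.91 and 42.2 CPM. Both were highest in replicate 1 and lowest in replicate 2, with factors of 15.5 and 13.6 between these libraries. The gene wago-10, whose product is also found in spermatogenic cells, kept the same order with 8.68 CPM (95% exact Poisson interval 7.23 to 10.3), 0.257 CPM (0.07 to 0.658) and 4.68 CPM (3.7 to 5.84).

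The summed sperm and hypodermis markers had the same order of libraries, for 20 of 20 and 3 of 8 of their genes. The body wall muscle sum was highest in replicate 1 but close in replicates 2 and 3, at 1176 and 1181 CPM. Of the muscle genes, 5 of 8 had the order of alg-3. The sperm sum differed 8.82-fold between replicates 1 and 2. Single sperm markers differed by 5.4- to 20.3-fold between these libraries, with a median of 8.56-fold. That range holds alg-3 (15.5-fold) only through its upper end, gsp-3. The next highest marker was ssp-19 (13.7-fold), close to alg-4 (13.6-fold). It does not hold wago-10, whose value in replicate 2 rests on 4 counts. Between replicates 3 and 2 the sperm sum differed 2.86-fold and single sperm markers by 1.93- to 11.2-fold. That range holds alg-4 (7.14-fold) but not wago-10 (18.2-fold). It holds alg-3 (9.14-fold) only through its upper end, fog-3, which had 2 counts in replicate 2. For each 1000 reads of the list, alg-3 had 7.74, 4.41 and 14.1 reads and alg-4 had 8.24, 5.34 and 13.3 reads in replicates 1, 2 and 3, highest in replicate 3 for both. In bulk RNA, fewer cells of a type and less RNA per cell cannot be told apart, and the part of sperm, hypodermis or muscle content in these differences was not tested. Over all 3 libraries the means were 41.7 CPM for alg-3, 42.8 CPM for alg-4 and 4.54 CPM for wago-10. Without replicate 1 they were 24.7, 24.1 and 2.47 CPM, and without replicate 2 they were 60.1, 61.3 and 6.68 CPM.

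Between the paralogues alg-3 and alg-4 no steady difference was seen. The log2 of alg-3 over alg-4 per length was -0.0099, -0.19 and 0.16 in replicates 1, 2 and 3, a mean of -0.014 ± 0.177, which is smaller than its spread and changes sign between libraries. The mean turned to 0.075 without replicate 2. The wago-10 and wago-11 pair had a mean difference of 0.29 ± 2.78 and also changed sign, as wago-10 was higher in replicates 1 and 3 and lower in replicate 2.

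**Figure D2:**
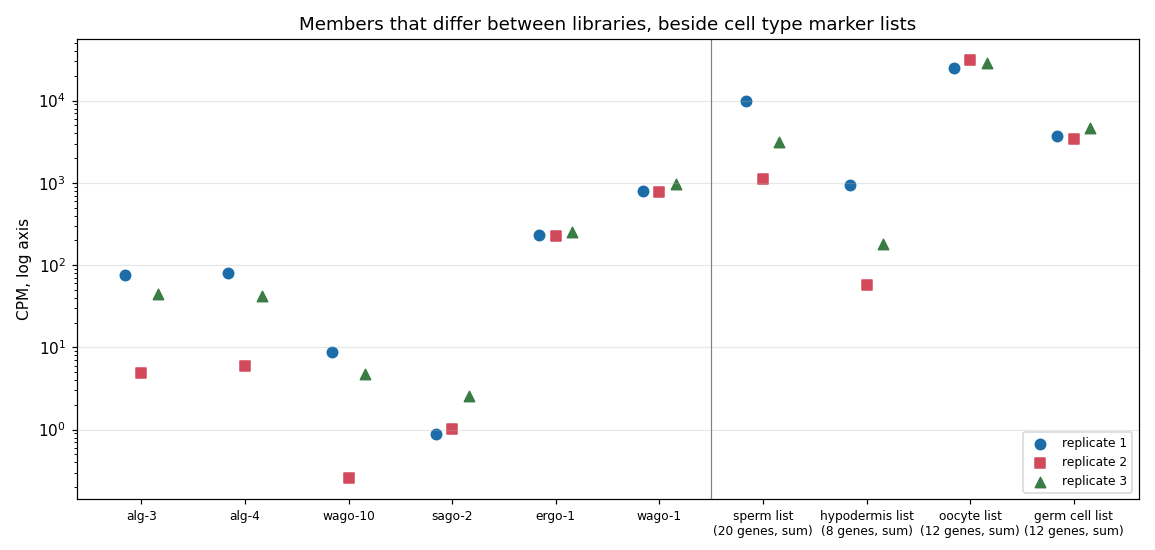
CPM on a log axis in each library for 6 Argonaute genes (left) and for the summed sperm, hypodermis, oocyte and germ cell marker lists (right), 1 point per library. Replicate 2 is lowest for alg-3, alg-4 and wago-10 and for the sperm, hypodermis and germ cell sums, the hypodermis sum being set by 3 collagens. It is also lowest for ergo-1 and wago-1, which differ little between libraries.

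ALG-1 and ALG-2 are the Argonautes of microRNAs. The X-linked alg-1 had 11.2, 9.44 and 12.9 CPM, whereas the autosomal alg-2 had 85.4, 85.3 and 78.8 CPM. Per length the log2 of alg-1 over alg-2 was -3.59 ± 0.282 in the same libraries, a 12.1-fold lower level of alg-1 present in 3 of 3 libraries. The exon length of alg-1, 6696 bp, is the longest of the 45 genes.

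The RNA-dependent RNA polymerases followed EGO-1, the germline enzyme of secondary siRNA synthesis. The gene ego-1 (WBGene00001214, chromosome I, 7650341 to 7656338) had 149, 162 and 196 CPM, or 32 ± 4.59 CPM per kb. Its neighbour rrf-1 (7643431 to 7649777 on the same strand), which acts in somatic RNAi and overlaps in function with ego-1 in germ cells, had 75.4, 72.9 and 81.7 CPM, or 15.3 ± 0.901 CPM per kb. The genes are 563 bp apart with no protein-coding gene between them, and ego-1 was higher per length by 1.06 ± 0.141 log2 units, in 3 of 3 libraries.

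RRF-3 makes the primary siRNAs that ERGO-1, ALG-3 and ALG-4 bind, and rrf-3 had 125, 157 and 166 CPM, or 27 ± 3.92 CPM per kb. It thus stood between ego-1 and rrf-1 on the scale per length, near ego-1. The fourth polymerase gene, rrf-2, had 4.27, 6.55 and 5.16 CPM, or 1.1 ± 0.237 CPM per kb, far under the others.

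Dicer and its partners were all present at 49 CPM or more in each library. The gene for RDE-4, which binds double-stranded RNA and hands it to Dicer, was the highest of them per length at 102 ± 9.07 CPM per kb, with 114, 135 and 120.3 CPM. Dicer itself, dcr-1, had 152, 143 and 161 CPM, and its long transcript gave it 25.8 ± 1.49 CPM per kb. The helicase DRH-3 and the Tudor protein EKL-1 work with the polymerases, and drh-3 had 105, 105 and 135 CPM and ekl-1 60.5, 54.5 and 65.5 CPM.

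The related helicase gene drh-1, known for antiviral defence, had 50.3, 51.4 and 51.3 CPM, the smallest ratio between libraries of the 45 genes (1.02). Per length drh-3 exceeded drh-1 by 1.07 ± 0.202 log2 units, in 3 of 3 libraries. The exonuclease gene eri-1, a negative regulator of exogenous RNAi, had 49, 56.6 and 57.4 CPM, or 24.7 ± 2.1 CPM per kb, close to dcr-1.

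Mutator factors lay in a narrow range except for mut-15. The gene mut-15, which encodes a component of mutator foci, had 198, 221 and 232 CPM. At 106 ± 8.55 CPM per kb it was the second highest of the 45 genes, level with rde-4, since their order changed between libraries. The scaffold gene mut-16 had 128, 118 and 115.2 CPM and the exonuclease gene mut-7 had 102, 121 and 107 CPM, which gave 35.3 ± 2.04 and 36.8 ± 3.25 CPM per kb.

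The other mutator genes were close to these. The gene mut-2, for the nucleotidyltransferase also called RDE-3, had 46.1, 56.8 and 56.3 CPM, and rde-2, for a partner of MUT-7, had 52.5, 66.1 and 73.9 CPM. They came to 34.1 ± 3.87 and 32.5 ± 5.49 CPM per kb. The DEAD-box helicase gene mut-14 was the lowest of the group at 37.9, 48.8 and 49.9 CPM, or 26 ± 3.77 CPM per kb. On their means, all 6 mutator genes lay above the median of detected protein-coding genes per length. In replicate 1 mut-14 had 21.7 CPM per kb, just under that library's median of 22.1.

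Factors that act on the target RNA spread more widely. RDE-10 and RDE-11 form a complex that is recruited to targets and promotes secondary siRNA synthesis, and the gene rde-10 had 158, 160.5 and 251 CPM against 18.4, 20.6 and 27 CPM for rde-11. Both were highest in replicate 3. Per length rde-10 had 90.4 ± 25.2 CPM per kb and rde-11 16.3 ± 3.29 CPM per kb, the ends of this group.

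The endoribonuclease gene rde-8 had 61.5, 67 and 64.5 CPM, and its short exon length of 1114 bp, the smallest of the 45 genes, brought it to 57.8 ± 2.48 CPM per kb. The Tudor protein gene rsd-6 had 103, 111 and 122 CPM, or 43.6 ± 3.62 CPM per kb. Its partner gene rsd-2 was one of the steadiest at 104 ± 1.73 CPM (SD, n = 3), and the DEAD-box helicase gene rde-12 had 69.7 ± 4.87 CPM. These came to 25.4 ± 0.422 CPM per kb for rsd-2 and 21.2 ± 1.48 CPM per kb for rde-12.

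The nuclear RNAi factors NRDE-1, NRDE-2 and NRDE-4 act with nuclear Argonautes at chromatin and on transcription. Their genes had the following levels in replicates 1, 2 and 3. The gene nrde-4 had 74.4, 88.7 and 111 CPM, nrde-2 had 73.1, 84 and 98.8 CPM, and nrde-1 had 45.9, 47.4 and 67.7 CPM. In each case replicate 3 was highest and replicate 1 lowest, and the levels per length were 36 ± 7.29, 21 ± 3.19 and 20.1 ± 4.56 CPM per kb. Exons of nrde-1 and nrde-4 overlap genes of the opposite strand by 99 and 91 bp. The importer of double-stranded RNA, sid-1, had 30, 31.9 and 33.3 CPM, or 12 ± 0.613 CPM per kb.

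**Figure D3:**
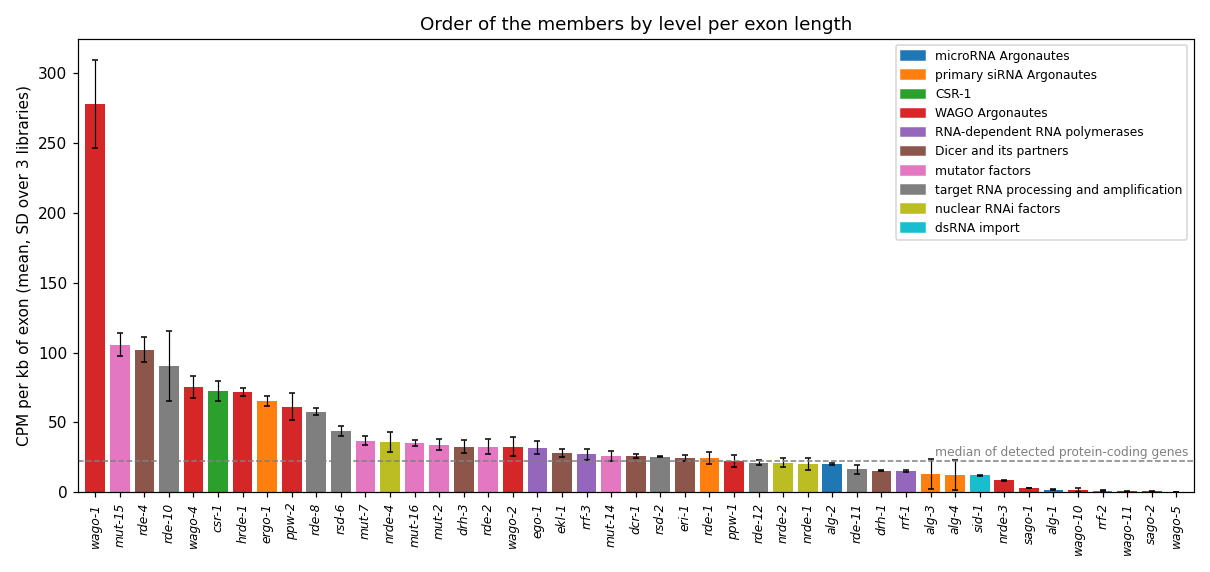
Mean CPM per kb of exon with the SD over 3 libraries for all 45 genes in descending order, coloured by role, and the median of detected protein-coding genes as a dashed line. The gene wago-1 stands alone at 278 CPM per kb, 26 genes lie at or above 24.5 CPM per kb, and the low end holds mostly Argonautes.

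Much of this order was not resolved by 3 libraries. Of the 43 neighbours in the order among genes with counts, 13 differed in the same direction in every library by more than the SD of their log2 difference, and 30 did not. The order was taken from the same 3 libraries, so meeting this rule is not a test that neighbours differ. Steps that met it included wago-1 over mut-15 (1.39 ± 0.123 log2 units), rde-8 over rsd-6 (0.41 ± 0.104), sid-1 over nrde-3 (0.49 ± 0.155) and nrde-3 over sago-1 (1.6 ± 0.011). The run from mut-7 to ego-1, 8 genes between 32 and 36.8 CPM per kb, had no step that met the rule. Over the 10 pairs of members compared per length, an exact two-sided sign-flip permutation test over 3 libraries cannot give less than p = 0.25 (0.312 after Benjamini-Hochberg adjustment over the 10 pairs). In this exact test, the 8 pairs with 1 direction in 3 of 3 libraries reached that value, and alg-3 with alg-4 (p = 0.75) and wago-10 with wago-11 (p = 1) did not.

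**Figure D4:**
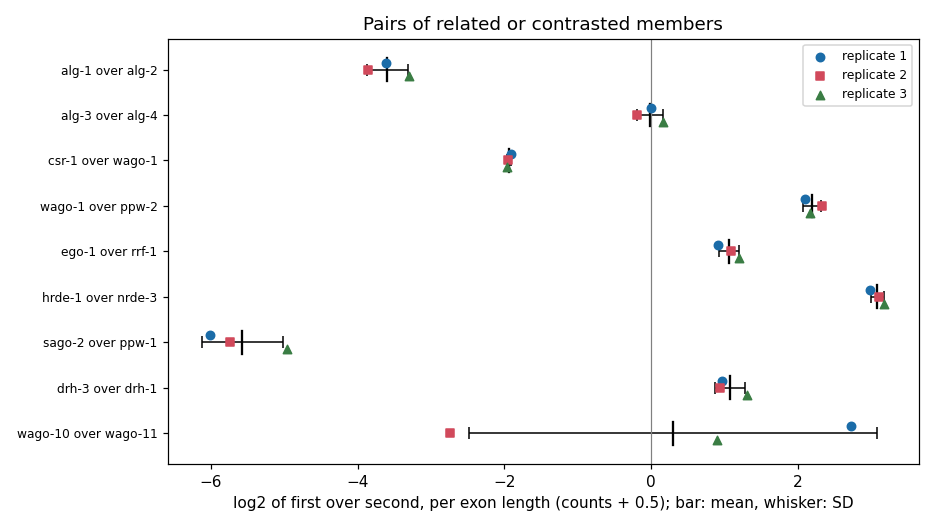
Log2 of the first over the second gene per exon length for 9 pairs, with 1 point per library, the mean as a bar and the SD as a whisker. The pair of wago-4 and wago-5 is left out because wago-5 had 0 counts. Points of 7 pairs lie on 1 side of 0, and those of alg-3 over alg-4 and wago-10 over wago-11 on both.

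Most of the genes varied little between libraries. Of the 44 genes with a mean of at least 1 CPM, 4 differed by 2-fold or more between the highest and the lowest library, against 25.1% of protein-coding genes that passed the same minimum. They were alg-3, alg-4, wago-10 and sago-2. In the direction of replicate 1 highest and replicate 2 lowest there were 3 of the 44, against 13.8% of protein-coding genes. A factor of 1.5 or more was found for 7 genes, against 38.8%, the added genes being wago-11 (1.95), rde-10 (1.59) and rrf-2 (1.53). The median coefficient of variation was 11.3% over the genes with counts and 13.6% over detected protein-coding genes. These comparisons were not matched for level. The median of mean CPM was 76.6 over the small-RNA factor genes and 32.1 over detected protein-coding genes. Without replicate 2, sago-2 alone remained past 2-fold.

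**Figure D5:**
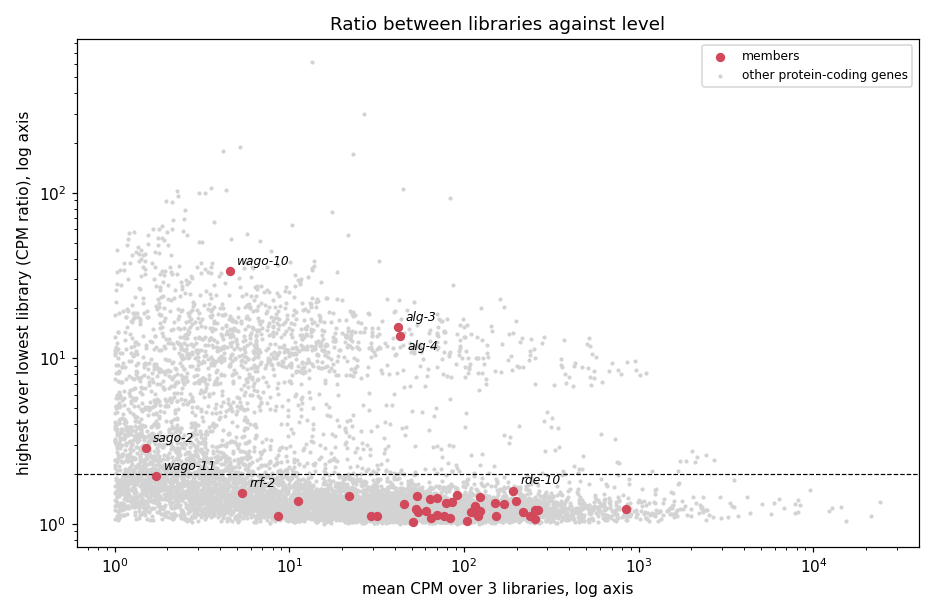
Ratio of the highest to the lowest library against mean CPM, both on log axes, for protein-coding genes of at least 1 CPM on average, with the 44 small-RNA factor genes in red and the others in grey. The dashed line marks 2-fold, and 49 genes with a library at 0 have no ratio and are not drawn. The 4 red points above the line are wago-10, alg-3, alg-4 and sago-2.

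Replicate 3 held the highest value for 30 of the 44 genes on the scale of library totals, but for 26 on the total of protein-coding genes, 26 with edgeR's TMM scaling after a filter on low counts, 22 with TMM on all genes and 20 with DESeq2 size factors. Among protein-coding genes of at least 1 CPM, replicate 3 was highest for 42.3% on library totals and, under these 4 other scalings in turn, for 35.3%, 33%, 27.3% and 27.7%. The germ cell markers were also highest in replicate 3 on library totals, 9 of 12 genes. Their part in the order of libraries was not tested.

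Other genes of small-RNA pathways, from 5 lists of 41 symbols of which 34 matched, were present in 33 of 34 cases at 1 CPM in each library, against 40.2% of protein-coding genes. In microRNA processing and silencing, 8 of 8 genes met this rule. The highest per length were vig-1 (640.5, 539 and 693 CPM) and tsn-1 (273, 278 and 316 CPM), whose products were found in an Argonaute complex, and the lowest was ain-1 (16.9, 16.4 and 21 CPM), a partner of the microRNA Argonautes. The RNAs for both subunits of the microRNA-producing Microprocessor, drsh-1 and pash-1, had 81.6 ± 7.06 and 118.9 ± 10.3 CPM.

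Of the genes of the ERI complex and antagonists of RNAi, 9 of 9 were present. The RNA phosphatase gene pir-1, a Dicer partner, had 202, 233 and 258 CPM, or 232 ± 28.3 CPM per kb. The RNA-editing deaminase gene adr-2 followed with 77, 73.3 and 94.3 CPM, and eri-6 was lowest with 11.1, 12.2 and 14.7 CPM. In the list of germ granule, mutator-associated and RNA-modifying genes, 9 of 9 matched genes were present. The uridylyltransferase gene pup-2 (117, 117 and 134 CPM) and smut-1 (75.4, 90 and 82.4 CPM), a relative of mut-14, led it. Per length mut-14 had 26 ± 3.77 CPM per kb against 47.1 ± 4.16 CPM per kb for smut-1. The lowest was drh-2, a pseudogene in the deposited table, with 2.34, 1.48 and 3.12 CPM.

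All 5 matched genes of nuclear silencing were present. The highest per length were hpl-2 (63, 63.8 and 74.6 CPM), a heterochromatin protein, and morc-1 (109, 121 and 135 CPM), which acts in inherited silencing. The histone methyltransferase gene set-32 was the lowest with 22.3, 21.6 and 23.1 CPM. In double-stranded RNA transport, sid-5 (10.2, 10.8 and 9.55 CPM) and sid-3 (24.4, 28.5 and 26.8 CPM) were present, and sid-2, an importer of the gut surface, was not, at 0.275, 0.642 and 0.36 CPM.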

How the data were processed

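RNA of 3 dissected N2 germline libraries was measured. The authors deposited raw read counts per gene; the submitters' processing notes name STAR, featureCounts and build WBcel235. Not given in the sources used here are versions, the strand setting and the treatment of multi-mapping reads, so near-identical copies and overlapping genes may share reads. Exons of 10 members overlap another gene by 17 to 438 bp, 7 of them on the opposite strand.

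CPM were computed on each column total (pandas 2.3.3). Exon lengths are unions of exons in the Ensembl release 115 annotation of WBcel235; 246 protein-coding genes have none. A gene was called present at 1 CPM in each library, where 1 CPM is 14.5 to 16.7 reads and 3 counts are 0.18 to 0.207 CPM. Pair differences used counts + 0.5. With 1 group there was no contrast, so counts and medians stand beside those of all protein-coding genes. edgeR 4.0.16 and DESeq2 1.42.0 served for alternative scaling only. The count rules were run on simulated data with independent genes and 1 fixed spread. Genes of the real libraries shifted together, so that run cannot show how the rules behave here. Members and lists were chosen with earlier results of these data known. Named with each library's value were the 3 highest and the lowest gene per role, all in roles of up to 4, genes under 1 CPM or past 2-fold, and the fixed pairs; the rest were added with their values known. Alternatives were other scalings, minima, lengths and pseudocounts, and leaving out each replicate. Symbols of the pathway lists without a match (7) are not analysed here. Markers of sheath and spermatheca (8 of 8 present) and of neurons (4 of 8) were also summed, at 778 to 790 and 47.7 to 48.6 CPM.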

Additional observations from a re-analysis of the deposited data

How the results depend on the processing

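The number of genes present stayed between 39 and 44 under all alternatives run, and the number at 10 CPM between 36 and 39. The number past 2-fold between libraries was 4 under every other scaling and without a filter on low values, between 1 and 4 when a replicate was left out (1 without replicate 2), and 7 at 1.5-fold. The median level per length lay between 25.1 and 27.9 CPM per kb. Of the pairs, the alg-3 difference from alg-4 lay between -0.10 and 0.075 with a replicate left out, reversing without replicate 2, and wago-10 from wago-11 between -0.92 and 1.81, reversing without replicate 1 and, at -0.0083, without replicate 3. The other 8 pairs kept their direction. Single gene means moved by more than 1 SD in 13 of 180 recomputations with another scaling, all on the protein-coding total. No paired analysis was possible because the study has 1 group. Depth limits wago-5, sago-2, wago-11 and wago-10, which rest on under 50 counts in some library.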

Other observations

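The small-RNA factor genes were unevenly placed and long. Chromosome I held 15 of 45 (33.3%), against 14.2% of protein-coding genes and 20.3% of those present at 1 CPM in each library. Chromosome V held 8 (17.8%), against 25.2% of protein-coding genes and 14.7% of those present. The X chromosome held alg-1 and nrde-3 only, 2 of 45 (4.44%), against 13.6% of protein-coding genes and 11% of those present. In the fixed pairs both X-linked genes were the lower per length, alg-1 under alg-2 and nrde-3 under hrde-1. Some autosomal Argonaute genes were lower still. At 8.49 CPM per kb nrde-3 stood above sago-1 (2.8), wago-10 (1.41), wago-11 (0.588), sago-2 (0.511) and wago-5 (0). At 1.67 CPM per kb alg-1 stood above all of these except sago-1. The remaining autosomal Argonaute genes were higher than both, and the part of X linkage was not tested. The median exon length was 3218 bp, against 1166 bp over protein-coding genes and 1478 bp over those present. No test was made of these shares, as the genes share families and were chosen by function.

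A pair of genes that the current annotation of the same build lists as pseudogenes, wago-2 and wago-11, differed widely in level. The gene wago-2 had 32.4 ± 6.8 CPM per kb, at percentile 84.1 of protein-coding genes, while wago-11 had 0.588 ± 0.189 CPM per kb.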
